A study of Mus musculus with 10 samples.

Results

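The 8 genes described here are the colony stimulating factors and their receptors: the ligands Csf1, Il34, Csf2 and Csf3, and the receptor chains Csf1r, Csf2ra, Csf2rb and Csf3r. They were taken by gene symbol from the platform annotation, and each had 1 probe set among the 24704 genes tested. The study used 10 Affymetrix arrays to profile liver sinusoidal endothelial cells (LSEC), which line the liver's smallest vessels and are perforated by fenestrae. The donors were female C57BL/6N mice, 10 weeks of age at the start of feeding. They received a CDAA diet (31% of calories from fat, 1% cholesterol) or a control diet, called Std here, with 5 arrays each. In liver research the abbreviation usually means choline-deficient and amino acid-defined, a diet that causes fatty liver and scarring. Titles and growth protocol give 10 weeks of feeding, whereas a duration field of the labels reads 10 days. The series' design text names a Gata4 knockout in LSEC, but no sample label does, and every sample is described here by its diet alone.

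For each array, cells of 3 mice were combined. They were taken from the non-parenchymal fraction with magnetic beads against the endothelial surface protein CD146. The arrays of a diet are labelled as biological replicates, so p-values rest on how pools vary, and variation among individual mice was not measured. LSEC markers were bright in both diets, with a list mean of 10.23 to 11.20 log2 in CDAA arrays and 11.63 to 11.76 log2 in Std arrays, and 11 of 12 markers fell. Markers of other liver cells were also present. The mean of 13 general macrophage markers was 9.29 to 10.54 log2 in CDAA arrays and 8.47 to 9.37 log2 in Std arrays. The third Std array (Std 3) stood apart with a mean of 9.17 log2 over 13 neutrophil markers, against 3.63 to 3.96 log2 on the other 4 Std arrays and 4.76 to 5.74 log2 on CDAA arrays. In such bulk samples, fewer cells of a type and less RNA per cell cannot be told apart.

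Colony stimulating factors are secreted proteins that keep myeloid cells alive and drive them to divide and mature. CSF-1 (M-CSF) and IL-34 share 1 receptor, the tyrosine kinase CSF1R, on which monocytes, Kupffer cells and most other macrophages depend. GM-CSF, made from Csf2, binds a specific alpha chain (Csf2ra) that pairs with the signalling beta chain (Csf2rb), and G-CSF, made from Csf3, binds the neutrophil receptor CSF3R. Endothelial cells, fibroblasts and stellate cells are known sources of CSF-1, while the receptors are carried mainly by myeloid cells.

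Of the 8 genes, Csf2ra rose and Csf1 fell in CDAA cells, and 6 did not pass the test (limma, Benjamini-Hochberg adjusted over all genes, threshold 0.05). In the same test 16.6% of all genes were called, 7.49% higher and 9.13% lower in CDAA, so a count of 2 among 8 genes is not read as a result about the group. The diets' arrays did not overlap for Csf1 alone among the 8, while 13.9% of all genes showed no overlap. The median change of the 8 genes was 0.27 on the log2 scale, against -0.02 for all genes. That median rested on a few arrays: it was -0.11 without CDAA 1 and CDAA 3, 0.08 without CDAA 3 or Std 4 alone, 0.13 without CDAA 1 and 0.38 without Std 3. A change here is always the CDAA minus Std difference of mean log2 signal.

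**Figure D1:**
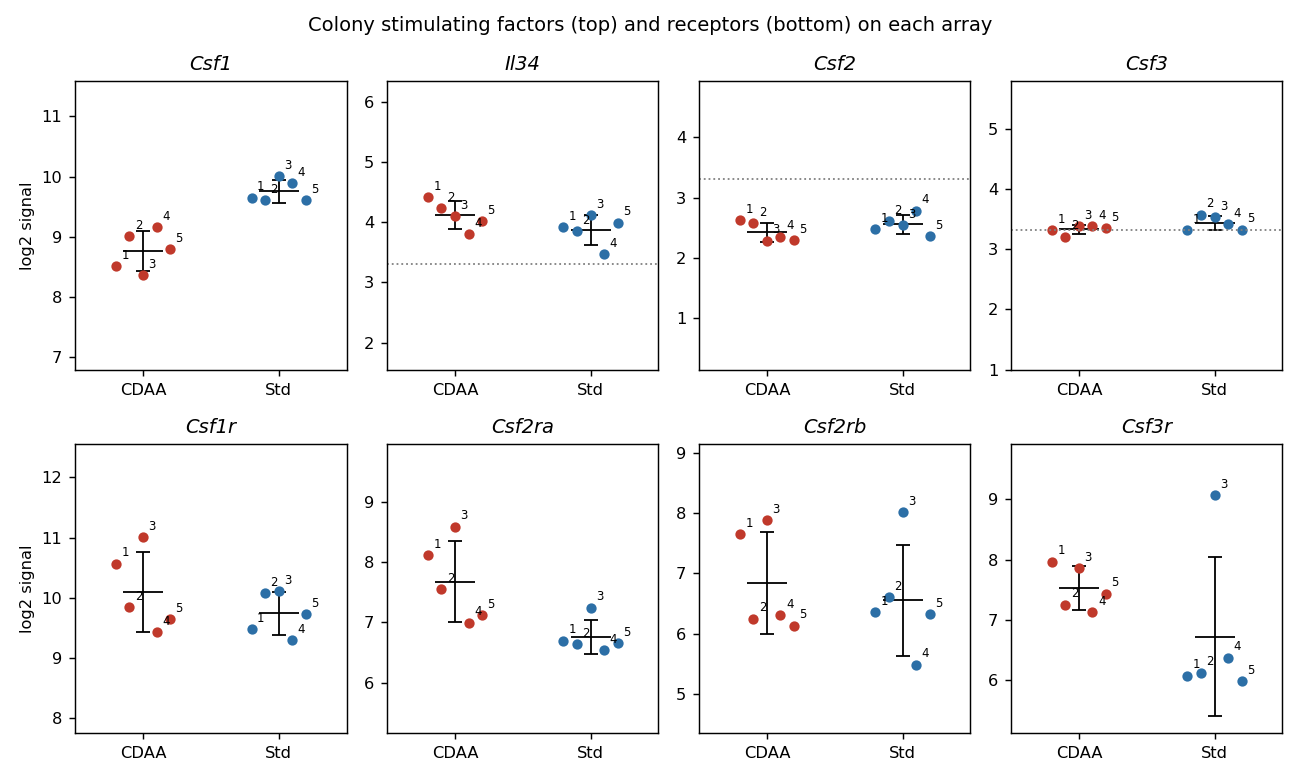
Log2 signal (vertical axes, all of the same height in log2 units, each with its own position) of the 4 ligands (top) and 4 receptors (bottom) on each array, CDAA left and Std right, numbered by replicate. Lines and bars are mean ± SD of 5 arrays, and the dotted line, where in range, is 3.31 log2, the 95th percentile of sensory receptor genes. All 5 CDAA arrays lie below all Std arrays for Csf1, and Std 3 lies far above the other Std arrays for Csf3r.

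Csf1, the gene of the ligand CSF-1, was the member with the largest change over all 10 arrays, though without Std 3 Csf3r changed more (1.39, against -0.92 for Csf1). Its log2 signal was 8.51, 9.01, 8.36, 9.16 and 8.80 on CDAA arrays 1 to 5, against 9.65, 9.61, 10.01, 9.90 and 9.61 on Std arrays 1 to 5. Every CDAA array was below every Std array. The means were 8.77 ± 0.33 log2 in CDAA and 9.76 ± 0.19 log2 in Std (SD, n = 5 each), a change of -0.99 ± 0.16 (SE, 95% confidence interval -1.33 to -0.64), or a signal 1.98-fold lower in CDAA (limma adjusted p = 0.00139). This fall remained past the threshold when each array was left out in turn, between -1.08 and -0.88.

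Within CDAA, Csf1 and the mean of 12 pan-endothelial markers put the arrays in the same order: CDAA 3 was lowest in both, followed by CDAA 1, CDAA 5, CDAA 2 and CDAA 4. The means of general macrophage markers and of stellate cell and fibroblast markers ran in exactly the reverse order. Within Std the match failed, as Std 3 had the highest Csf1 (10.01 log2) and the lowest pan-endothelial mean (11.37 log2). That mean was 10.06 to 11.14 log2 in CDAA arrays and 11.37 to 11.52 log2 in Std arrays, and 9 of the 12 markers fell. With that mean as a covariate the Csf1 change was -0.43 (limma adjusted p = 0.332), and with the general macrophage marker mean it was -0.63 (limma adjusted p = 0.140). Since marker means and diet move together, these fits cannot tell the 2 apart. The fits called 0.923% (pan-endothelial) and 1.9% (macrophage) of all genes, against 16.6% without a covariate. Without CDAA 1 and CDAA 3, the arrays with the lowest endothelial means, the Csf1 change was -0.76 and still past the threshold.

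The Csf1 promoter is shown because the gene's fall passed the test with every single array left out and because CSF1 is a known target of NF-kB in inflamed cells. The window, from RefSeq on build GRCm38.p6, spans chr3:107760420-107760719 on the minus strand, from 250 bases before to 50 bases after the transcription start. Capitals mark a match to the 10-letter NF-kB motif, which was searched on both strands, has these very letters on the gene's opposite strand, and lies 154 to 145 bases before the start. Of all windows, 51 of 32851 (0.155%), each of 300 bases, hold this motif. A match is a description of the letters only. The motifs searched were chosen after the sequences had been seen.
Csf1: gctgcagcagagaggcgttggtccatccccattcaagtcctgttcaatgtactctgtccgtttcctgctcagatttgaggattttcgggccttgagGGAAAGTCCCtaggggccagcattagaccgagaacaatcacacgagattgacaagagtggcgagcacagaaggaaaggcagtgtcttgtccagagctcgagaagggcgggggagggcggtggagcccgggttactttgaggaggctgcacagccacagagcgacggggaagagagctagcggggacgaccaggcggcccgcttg

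Il34, the gene of the second CSF1R ligand, which is known for maintaining microglia and Langerhans cells, gave a dim signal. It read 4.42, 4.23, 4.10, 3.80 and 4.01 log2 in CDAA and 3.91, 3.85, 4.12, 3.46 and 3.99 log2 in Std, so the diets overlapped. The change was 0.24 ± 0.14 (SE, 95% interval -0.07 to 0.56, limma adjusted p = 0.302). As a yardstick of dim signal, 1400 olfactory, vomeronasal and taste receptor genes, which liver cells are not known to use, had a 95th percentile of 3.31 log2, and every Il34 value was above it.

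The measured changes of the CSF1R ligands differed from each other, mostly through Csf1 (-0.99, against 0.24 for Il34). Il34 lay close to the dim range, so the size of its change is uncertain. Taken within each array, the difference of Csf1 and Il34 shifted by -1.23 between CDAA and Std. The exact permutation p was 0.00794, the smallest that 5 against 5 arrays can give, and 0.0132 after Benjamini-Hochberg adjustment over 5 such differences. Csf1 alone already separated the diets without overlap and Il34 varied little, so this p mostly repeats the fall of Csf1. Csf1 also moved apart from markers of stellate cells and fibroblasts. Their list mean was 6.51 to 8.10 log2 in CDAA arrays and 5.71 to 6.21 log2 in Std arrays, and 6 of 11 markers rose. The Csf1 change minus that of this list mean was -2.37 (exact permutation p = 0.00794, adjusted p = 0.0132). Csf1 and this mean each separated the diets without overlap, in opposite directions. Their difference therefore had to give the smallest p, which adds no evidence beyond the separate changes. Without CDAA 1 and CDAA 3 both differences kept their sign, at -0.91 and -1.75, with an adjusted p of 0.0595 each by the exact permutation test, whose smallest raw p is then 0.0357.

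Csf2 and Csf3, the genes of GM-CSF and G-CSF, lay at or near the dim end of the arrays. Csf2, which activated T cells and stimulated stromal cells make, read 2.62, 2.58, 2.29, 2.35 and 2.29 log2 in CDAA and 2.48, 2.61, 2.54, 2.78 and 2.37 log2 in Std, below 3.31 log2 on every array. Its change was -0.13 ± 0.11 (SE, 95% interval -0.37 to 0.11, limma adjusted p = 0.501). Csf3, the growth factor of neutrophil production, read 3.31, 3.21, 3.38, 3.38 and 3.35 log2 in CDAA and 3.31, 3.57, 3.53, 3.42 and 3.32 log2 in Std. Its change was -0.11 ± 0.09 (SE, 95% interval -0.30 to 0.09, limma adjusted p = 0.503). The diets overlapped for both genes, and at such signals an array cannot show that a transcript is absent.

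Csf1r, the shared receptor of CSF-1 and IL-34, was bright and did not pass the test. It read 10.57, 9.85, 11.02, 9.44 and 9.64 log2 in CDAA and 9.49, 10.08, 10.12, 9.30 and 9.73 log2 in Std. CDAA 1 and CDAA 3 were above every Std array, and the other 3 CDAA arrays lay within the Std range. The change was 0.36 ± 0.28 (SE, 95% interval -0.26 to 0.98, limma adjusted p = 0.466), and without CDAA 1 and CDAA 3 it was -0.10. With 1 array left out it ranged between 0.13 (without CDAA 3) and 0.53 (without CDAA 4). No sequence of this gene is shown.

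Csf1r changed less than the mean of the general macrophage markers of the same arrays. Single markers changed by -0.97 (Mertk) to 1.93 (Cd14), and Fcer1g by 0.37, close to Csf1r. The marker mean was 10.23, 9.57, 10.54, 9.29 and 9.61 log2 in CDAA and 8.71, 9.28, 9.37, 8.47 and 8.98 log2 in Std, a difference of means of 0.88, and 7 of the 13 markers rose and 1 fell. CDAA 1 and CDAA 3 were the highest in this mean, as they were in Csf1r. The Csf1r change minus that of the marker mean was -0.52 (exact permutation p = 0.00794, adjusted p = 0.0132 over 5 differences). This held at -0.58 to -0.47 with each array left out. It was -0.62 without CDAA 1 and CDAA 3, with an adjusted p of 0.0595 in the exact permutation test. The raw p there was 0.0357, the smallest that the remaining arrays can give. With the macrophage marker mean as a covariate the Csf1r change was -0.66 (limma adjusted p = 0.0297). As this mean and diet move together, that fit cannot tell the 2 apart. The macrophage markers did not move as a unit. Markers of Kupffer cells, the resident macrophages of the liver, had a list mean of 6.92 to 7.73 log2 in CDAA arrays against 8.41 to 9.45 log2 in Std arrays, and 6 of 7 fell. Markers of recruited, monocyte-derived macrophages had a list mean of 8.21 to 9.68 log2 in CDAA arrays against 4.96 to 5.94 log2 in Std arrays, and 7 of 8 rose. Their part in the Csf1r values was not tested.

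Csf2ra, the alpha chain that gives the GM-CSF receptor its specificity, was the only member that rose in the test over all arrays. It read 8.11, 7.55, 8.59, 7.00 and 7.12 log2 in CDAA and 6.70, 6.64, 7.24, 6.54 and 6.66 log2 in Std. CDAA 1, CDAA 2 and CDAA 3 were above every Std array, while CDAA 4 and CDAA 5 were below Std 3 and above the other 4 Std arrays. The means were 7.67 ± 0.67 log2 in CDAA and 6.76 ± 0.28 log2 in Std (SD, n = 5 each), a change of 0.92 ± 0.27 (SE, 95% interval 0.32 to 1.52), or 1.89-fold higher (limma adjusted p = 0.0385). The call was lost on leaving out any of 7 single arrays, CDAA 1, CDAA 2, CDAA 3, Std 1, Std 2, Std 4 or Std 5, while the change stayed between 0.69 and 1.09 over all 10 leave-outs (limma adjusted p 0.0140 to 0.0943). Without CDAA 1 and CDAA 3 it was 0.47 (limma adjusted p = 0.134), and with the macrophage marker mean as a covariate 0.04 (limma adjusted p = 0.961). That covariate moves with diet, so the latter fit cannot tell the 2 apart. Without CDAA 1, CDAA 3 and Std 3, a fit added after seeing the data, the Csf2ra change was 0.59 (limma adjusted p = 0.0250).

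**Figure D2:**
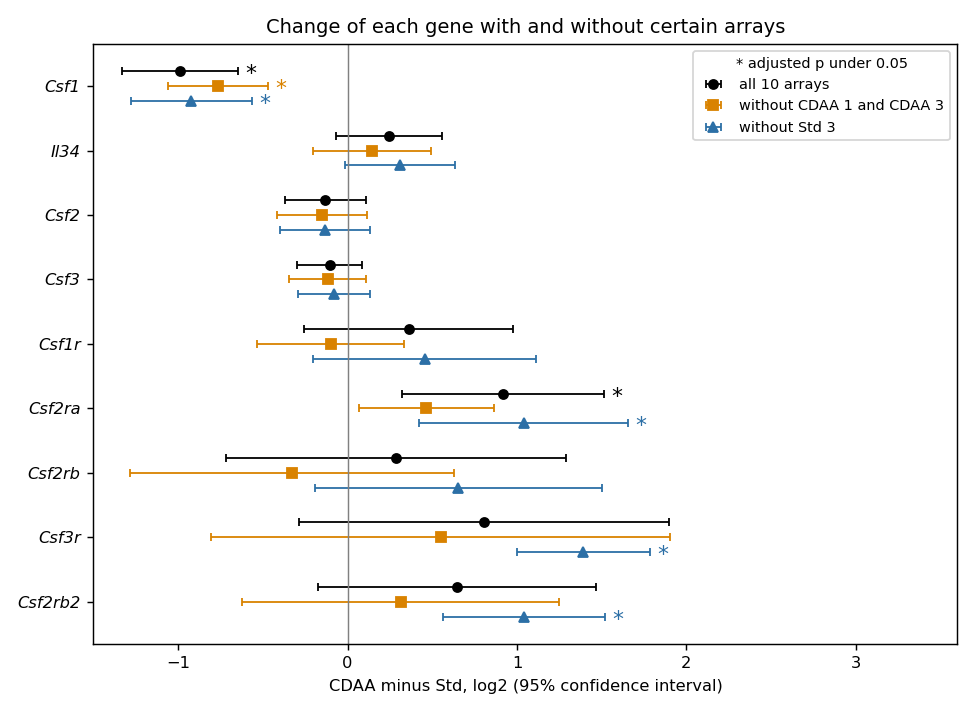
Change of each gene (horizontal axis, CDAA minus Std, log2) with its 95% confidence interval from limma, over all 10 arrays, without CDAA 1 and CDAA 3, and without Std 3. Asterisks mark an adjusted p under 0.05, and Csf2rb2, the paralog beside Csf2rb, is added below the 8 genes. Csf1 passes in all 3 fits, Csf2ra in 2, and Csf3r passes without Std 3, at 1.39.

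Csf2rb, the beta chain through which GM-CSF, IL-3 and IL-5 signal, did not pass the test. It read 7.65, 6.25, 7.88, 6.30 and 6.13 log2 in CDAA and 6.35, 6.60, 8.02, 5.48 and 6.32 log2 in Std. Within CDAA the arrays 1 and 3 were high, within Std the array 3, and the diets overlapped. The change was 0.29 ± 0.46 (SE, 95% interval -0.71 to 1.29, limma adjusted p = 0.755), and -0.33 without CDAA 1 and CDAA 3. With 1 array left out it ranged between 0.02 (without Std 4) and 0.65 (without Std 3). The Csf2rb change minus that of the macrophage marker mean was -0.60 (exact permutation p = 0.135, adjusted p = 0.169), and with the marker median it was -0.91 (exact permutation p = 0.00794, adjusted p = 0.00992), so that call depended on the marker summary.

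Csf2rb2, a mouse paralog that neighbours Csf2rb and encodes a beta chain specific to IL-3, is no member but shares much of its sequence, and how the probes divide the pair is not given in the sources used here. It read 7.84, 6.86, 7.48, 6.79 and 6.83 log2 in CDAA and 6.21, 5.94, 8.09, 5.94 and 6.37 log2 in Std. All CDAA arrays were above every Std array but Std 3. Its change was 0.65 ± 0.38 (SE, limma adjusted p = 0.300) over all arrays and 1.04 without Std 3 (limma adjusted p = 0.00881). Csf2rb itself was 0.65 without Std 3 and did not pass (limma adjusted p = 0.318).

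Csf3r, the G-CSF receptor, which neutrophils carry at high level and monocytes and some macrophages at lower level, turned on 1 array. It read 7.97, 7.25, 7.86, 7.13 and 7.44 log2 in CDAA and 6.07, 6.13, 9.07, 6.37 and 5.98 log2 in Std. Every CDAA array was above 4 of the 5 Std arrays and below Std 3. The change was 0.81 ± 0.50 (SE, 95% interval -0.29 to 1.90, limma adjusted p = 0.337). Without Std 3 it was 1.39 (95% interval 1.00 to 1.78), or 2.62-fold higher in CDAA (limma adjusted p = 0.000559), and 7.06% of all genes were called higher in that fit. With the neutrophil marker mean as a covariate, an alternative added after seeing the data, the change was 0.68 (limma adjusted p = 0.00173).

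Neutrophil markers followed the same arrays as Csf3r. Their list mean was 5.74, 4.76, 5.52, 4.83 and 4.80 log2 in CDAA and 3.94, 3.63, 9.17, 3.96 and 3.82 log2 in Std. Over all arrays 0 of 13 markers were called by limma, and without Std 3, 9 of 13 rose. None of the 13 lay at or below 3.31 log2 on every array, but some were dim. Ly6g was below that mark on every Std array but Std 3 (8.51 log2). The CDAA means of Ly6g, Camp and Elane were 3.13, 3.19 and 3.03 log2, and those of the other markers lay above the mark. The Csf3r change minus that of the list mean was 0.58 (exact permutation p = 0.214, adjusted p = 0.214), and without Std 3 it was 0.10, from a Csf3r change of 1.39 and a list change of 1.29. Their part in the Csf3r change was not tested.

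**Figure D3:**
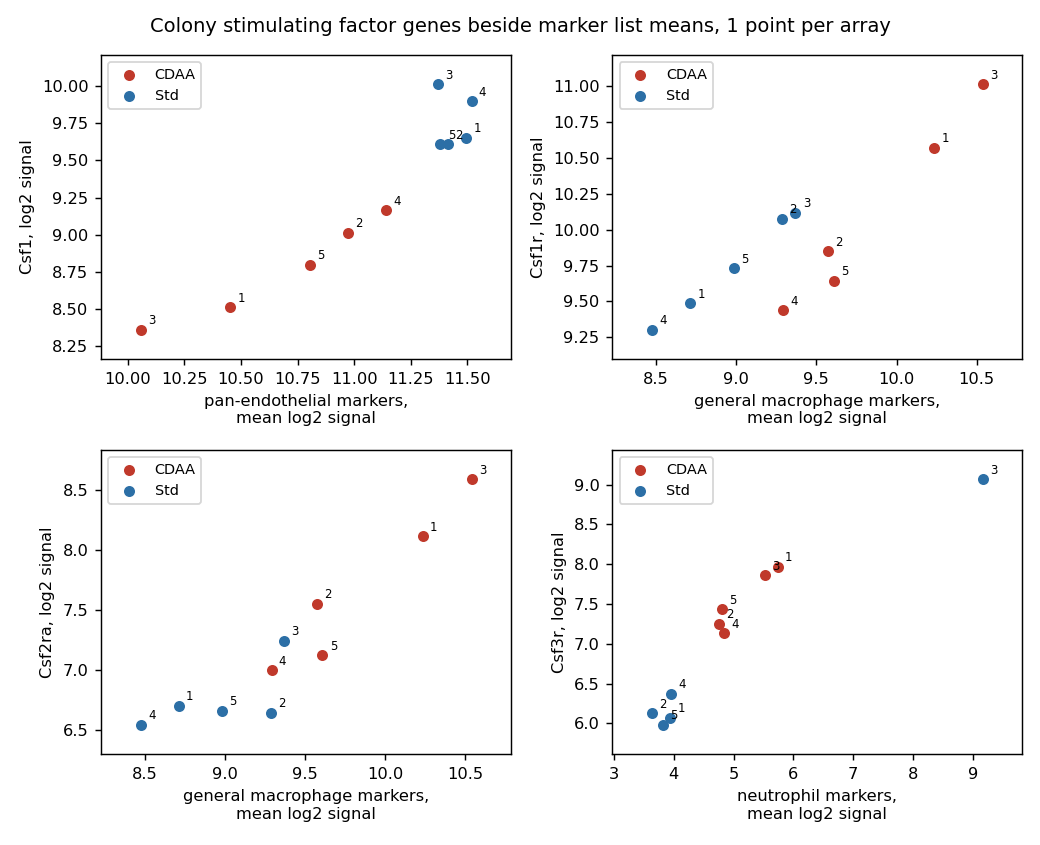
Log2 signal of Csf1, Csf1r, Csf2ra and Csf3r (vertical axes) beside the mean log2 signal of a marker list on the same array (horizontal axes), 1 point per array, numbered by replicate. Csf1 and the pan-endothelial markers put the CDAA arrays in 1 order. Within Std, array 3 is highest in Csf1 and lowest in those markers. CDAA 1 and CDAA 3 are high in macrophage markers, Csf1r and Csf2ra, and Std 3 is highest in neutrophil markers and Csf3r.

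The promoters of Csf2ra and Csf3r are shown because these are the receptor genes with the largest changes and because PU.1, a myeloid transcription factor that binds purine-rich GAGGAA cores, is known to drive colony stimulating factor receptor genes. Entries were found for 4 of the 8 members. Both windows are from RefSeq on GRCm38.p6 with the same extent as above, chr19:61228369-61228668 on the minus strand for Csf2ra and chr4:126024409-126024708 on the plus strand for Csf3r. Capitals mark GAGGAA, present as a tandem pair at 14 to 9 and 8 to 3 bases before the Csf2ra start and once at 86 to 81 bases before the Csf3r start. On either strand this core is found in 28.3% of all promoter windows, so a match is common. The C/EBP motif TTGCNNAA (10.8% of windows) and the AP-1 motif TGANTCA (7.81%) were not found in the windows of Csf1, Csf2ra and Csf3r. The Csf2 window, which is not shown, held a C/EBP match, TTGCCCAA, at 145 to 138 bases before the start.
Csf2ra: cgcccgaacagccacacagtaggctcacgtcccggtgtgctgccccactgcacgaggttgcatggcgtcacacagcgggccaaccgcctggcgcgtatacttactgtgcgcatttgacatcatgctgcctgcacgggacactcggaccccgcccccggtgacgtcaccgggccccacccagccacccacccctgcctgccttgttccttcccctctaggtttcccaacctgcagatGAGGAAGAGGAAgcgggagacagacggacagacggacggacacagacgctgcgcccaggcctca
Csf3r: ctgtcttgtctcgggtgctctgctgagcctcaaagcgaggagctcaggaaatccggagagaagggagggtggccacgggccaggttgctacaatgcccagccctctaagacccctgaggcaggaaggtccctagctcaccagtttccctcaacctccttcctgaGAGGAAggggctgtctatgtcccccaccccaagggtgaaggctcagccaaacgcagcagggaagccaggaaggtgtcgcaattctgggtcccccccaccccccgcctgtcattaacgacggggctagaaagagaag

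Genes that act around these receptors were counted in 7 lists, and their shares are to be read against the 16.6% of all genes called. Among 17 measured relays of CSF1R signals, 3 rose and 0 fell, with a median change of 0.30. Src, a tyrosine kinase recruited to the activated receptor, averaged 5.98 ± 0.46 log2 in CDAA and 4.94 ± 0.11 log2 in Std (SD, n = 5 each), a change of 1.05 ± 0.19 (SE, limma adjusted p = 0.00262), with no overlap. Tyrobp, the adaptor DAP12, changed by 1.24 (limma adjusted p = 0.0223) and Dok2, a docking protein of hematopoietic cells, by 0.64 (limma adjusted p = 0.0394). Both lost the call without CDAA 1 and CDAA 3, at 0.83 and 0.45, and the count was then 1 of 17 with a median of 0.09, where 5.28% of all genes were called higher. Without Std 3 it was 6 of 17.

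Of 11 JAK-STAT relays and feedback genes, through which GM-CSF and G-CSF receptors signal, 3 fell and 0 rose (median -0.04). The other genes of the list were not called, with changes from -0.19 (Cish) to 0.89 (Pim1), and Jak2 was at -0.05. Socs1, an inhibitor of JAK kinases, averaged 4.88 ± 0.29 log2 in CDAA and 5.82 ± 0.33 log2 in Std, a change of -0.94 ± 0.18 (SE, limma adjusted p = 0.00362). Stat5b, a transcription factor activated by cytokine receptors, changed by -0.67 ± 0.10 (SE, limma adjusted p = 0.00114). Jak1, a kinase shared by many cytokine receptors, changed by -0.60 ± 0.15 (SE, limma adjusted p = 0.0151). For these 3 genes no CDAA array reached the Std range. Jak1 averaged 11.41 ± 0.34 log2 in CDAA and 12.01 ± 0.07 log2 in Std. Within CDAA it put the arrays in the same order as the pan-endothelial mean, and a link between them was not tested.

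In the beta common receptor family, 0 of 5 genes were called by limma (median -0.05). The smallest p belonged to Il3ra, the IL-3 receptor alpha chain, with 6.63 ± 0.40 log2 in CDAA and 7.02 ± 0.21 log2 in Std, a change of -0.39 (limma adjusted p = 0.177). Il3, Il5 and Il5ra, the genes of IL-3, IL-5 and the IL-5 receptor alpha chain, lay at or below 3.31 log2 on every array. Among 4 genes for other IL-34 receptors and for sheddases that release CSF-1 or its receptor from the cell surface, 1 rose (median 0.19). It was Sdc1, syndecan-1, a proteoglycan that binds IL-34, with 6.67 ± 0.25 log2 in CDAA and 6.00 ± 0.21 log2 in Std (SD, n = 5 each), a change of 0.66 ± 0.14 (SE, limma adjusted p = 0.00676).

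Of 11 myeloid transcription factors, 2 rose and 2 fell (median 0.11). Cebpa, needed for granulocyte and monocyte precursors and also used by hepatocytes, averaged 7.90 ± 0.57 log2 in CDAA and 6.85 ± 0.17 log2 in Std, a change of 1.06 ± 0.23 (SE, limma adjusted p = 0.00821). Irf8, a factor of monocytes and dendritic cells, changed by 0.91 ± 0.18 (SE, limma adjusted p = 0.00509). Maf, used by resident macrophages and by LSEC, changed by -0.69 ± 0.20 (SE, limma adjusted p = 0.0324), and this call was lost without CDAA 1 and CDAA 3, at -0.33. Ets2, an effector of Ras signalling downstream of CSF1R, changed by -0.62 (limma adjusted p = 0.00697). Spi1, the gene of PU.1, had a change of 0.84 that missed the threshold (limma adjusted p = 0.0789). Its Std 3 value was 8.20 log2, against 6.60 to 7.16 log2 on the other Std arrays and 7.40 to 8.58 log2 on CDAA arrays. Without Std 3 its change was 1.10 and passed (limma adjusted p = 0.00945), and 4 of the 11 factors rose, with a list median of 0.05. Without CDAA 1 and CDAA 3 the median was 0.30, with 2 risen and 1 fallen.

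Of 9 genes known to respond to GM-CSF, 3 rose and 0 fell (median 0.78). Itgax, the integrin CD11c of dendritic cells and of lipid-laden macrophages, read 8.88, 7.74, 9.17, 7.19 and 7.45 log2 in CDAA and 3.57, 3.79, 4.65, 3.88 and 4.39 log2 in Std. Its change of 4.03 ± 0.37 (SE, limma adjusted p = 5.15e-05) was the largest of the 7 lists. Pparg, a lipid-sensing nuclear receptor that GM-CSF induces in alveolar macrophages, averaged 5.83 ± 0.33 log2 in CDAA and 4.77 ± 0.10 log2 in Std, a change of 1.06 ± 0.15 (SE, limma adjusted p = 0.000564). Ccl22, a chemokine of dendritic cells, read 5.44 and 5.06 log2 on CDAA 1 and CDAA 3, 3.66 to 3.98 log2 on the other CDAA arrays and 2.94 to 3.23 log2 in Std, a change of 1.28 ± 0.31 (SE, limma adjusted p = 0.0133). Its Std values all lay below the 3.31 log2 mark of dim signal, so the size of that change is uncertain, and without CDAA 1 and CDAA 3 it was 0.70. The list median was then 0.36, again with 3 risen. Csf2 itself stayed at dim signal on these same arrays.

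Of 7 measured inducers of colony stimulating factor genes, 1 rose (median 0.08). Il1b, the gene of interleukin-1 beta, read 10.32, 9.96, 10.24, 9.86 and 9.99 log2 in CDAA and 7.52, 8.52, 10.32, 8.47 and 8.31 log2 in Std, again with Std 3 in the CDAA range. Its change was 1.44 ± 0.39 (SE, limma adjusted p = 0.0233), 1.87 without Std 3 (limma adjusted p = 0.000167), and 1.31 without CDAA 1 and CDAA 3 (limma adjusted p = 0.118). Tnf, the gene of tumour necrosis factor, had a change of 1.72 that missed the threshold (limma adjusted p = 0.0758). Its values were 9.27, 6.37, 8.02, 5.75 and 6.00 log2 in CDAA and 5.87, 4.57, 6.26, 5.09 and 5.03 log2 in Std. Without CDAA 1 and CDAA 3 the Tnf change was 0.67.

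**Figure D4:**
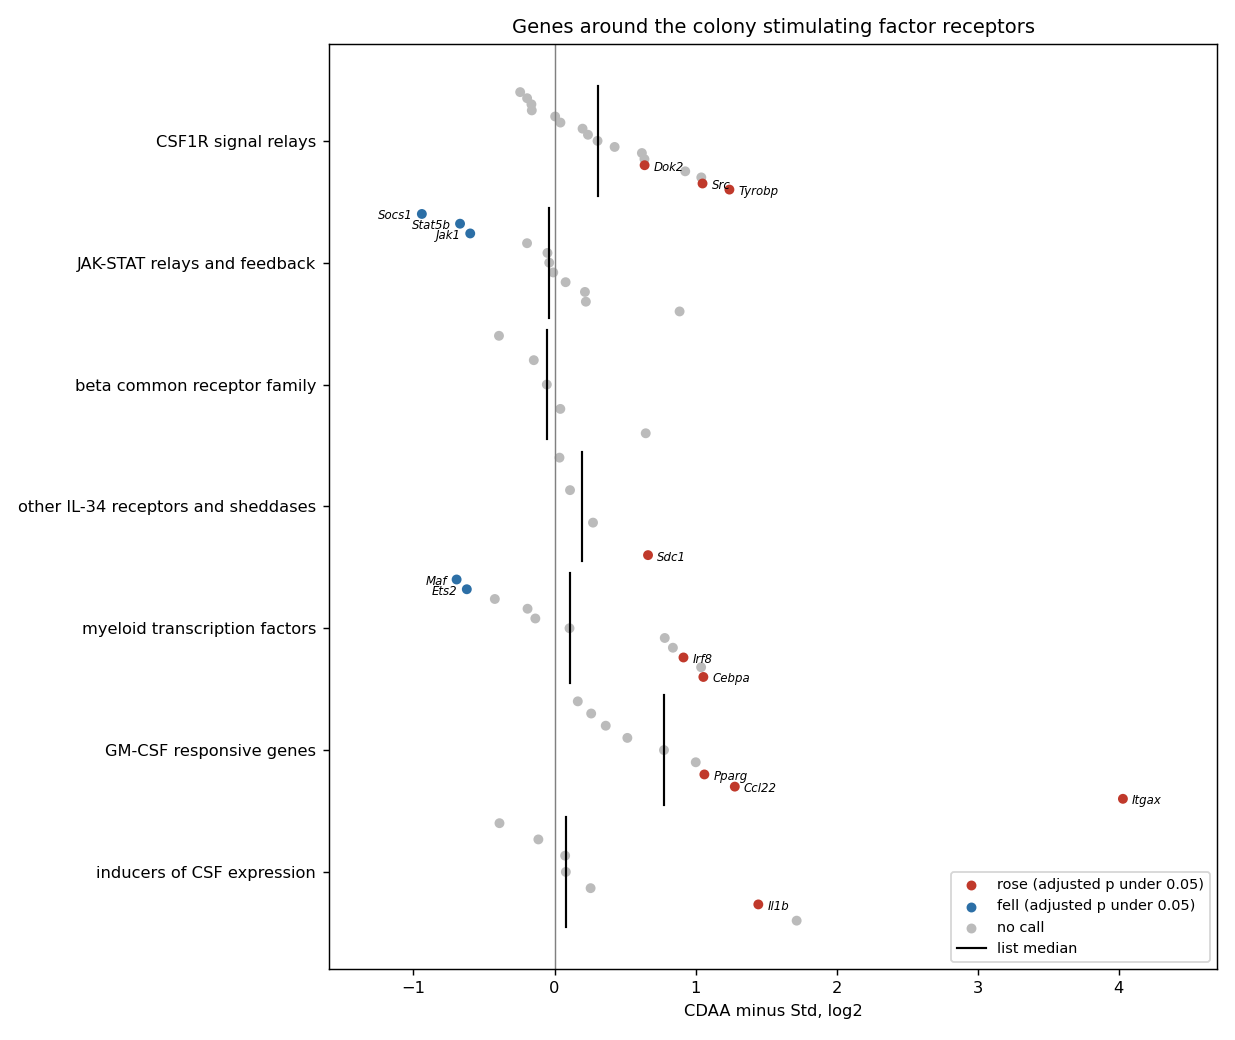
Change of each measured gene of the 7 lists around the receptors (horizontal axis, CDAA minus Std, log2). Red and blue points rose or fell at a limma adjusted p under 0.05, grey points were not called, and black lines are list medians, from -0.05 to 0.78. Itgax at 4.03 lies farthest from 0.

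The genes most like each member in their pattern over the 10 arrays were found by the root mean square difference of log2 profiles, each centred on its own mean, among 19818 genes. Csf1 was most like Zbtb39 (0.096), Timp3 (0.096) and Hpse (0.111), where its own spread was 0.549. Timp3 encodes an inhibitor of matrix metalloproteinases and Hpse the heparan sulfate-cleaving enzyme heparanase. Csf1r was most like Pla2g4a (0.105), Ctsc (0.109) and Lrrc25 (0.131), against an own spread of 0.510, and Ctsc encodes the lysosomal protease cathepsin C. Csf2ra was most like Fmod (0.108), the proteoglycan fibromodulin, Arhgap25 (0.139) and Daglb (0.158), against 0.650.

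Csf2rb and Csf3r had less close matches, with own spreads of 0.805 and 0.955. Csf2rb was most like Plbd1 (0.302), Itgal (0.310), the leukocyte integrin chain CD11a, and Slc2a6 (0.316). Csf3r was most like Il17ra (0.276), the receptor chain of interleukin-17, Gda (0.286) and Slc16a3 (0.315), the lactate carrier MCT4. For Il34 and Csf3, which varied little (0.248 and 0.102), the closest were Ldha (0.124), Pola1 (0.126) and Ddx49 (0.126), and Slc16a5 (0.059), Lgmn (0.061) and Rmc1 (0.069). Csf2, below the percentile of sensory receptor genes, was not compared.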

How the data were processed

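Gene expression was measured on 10 arrays, 5 from mice on the CDAA diet and 5 on Std. The authors deposited log2 values that, per the submitters' processing notes, came from RMA (robust multi-array average), a method that corrects background, gives all arrays the same distribution and summarises each probe set. Version, array design and build are not given in the sources used here, and no batch is recorded. Of 25428 probe sets, 24705 carried a single gene symbol and 723 are unnamed here. Where a gene had several probe sets (1 gene), the one with the highest mean was kept, giving 24704 genes.

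Diets were compared with limma 3.58.1 in R 4.3.3 (lmFit, eBayes, two-sided, Benjamini-Hochberg over all genes, threshold 0.05). Only genes past it are said to have risen or fallen. Within-array differences were tested with two-sided exact permutation tests (Python 3.11.15, scipy 1.17.1), adjusted over 5 differences. The fitting script was tested on simulated data with known changes. For arrays, their number limits the precision.

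The members, 7 pathway lists (68 entries) and 13 marker lists were chosen with earlier results of these data known. 6 list genes are not reported here. Named by rule were the 8 members, from each pathway list up to 3 genes past the threshold with no overlap between diets, largest changes first (or the 1 with the smallest p where none passed), and the 3 genes most like each member above the sensory receptor percentile. Csf2rb2, Tyrobp, Dok2, Ets2, Spi1, Tnf, Il3, Il5, Il5ra, Siglecf, Ccr3 and Zbtb46 were named after their values were seen. The same holds for Jak2, Cish, Pim1, Mertk, Cd14, Fcer1g, Ly6g, Camp and Elane. Replicate numbers are shared by the diets but were not taken as pairs, as no label ties them. Other settings were the replicate number as a block, renormalization, centring, filters on dim genes, variance models, array weights, marker means as covariates and leaving out arrays. The neutrophil covariate, the fit without CDAA 1, CDAA 3 and Std 3, the list counts without Std 3, all Csf2rb2 settings and the differences without CDAA 1 and CDAA 3 were added after seeing the data.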

Additional observations from a re-analysis of the deposited data

Results flagged for a closer look

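In 5 of 70 groups of 5 arrays tested, 1 array lay farther from the nearest other array than 0.71 of the group's range, the 95% critical value of Dixon's test. Chance gives such a gap in about 1 in 20 groups. All 5 gaps were on Std 3. Csf3r read 9.07 log2 on Std 3, against 5.98 to 6.37 log2 on the other Std arrays. Csf2ra read 7.24 log2 there, against 6.54 to 6.70 log2, and the paralog Csf2rb2 read 8.09 log2, against 5.94 to 6.37 log2. The mean of the neutrophil markers was 9.17 log2, against 3.63 to 3.96 log2. The mean of the recruited macrophage markers was 5.94 log2, against 4.96 to 5.21 log2.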

How the results depend on the processing

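Values are CDAA minus Std changes on the log2 scale unless counts are named, and the cause of a shift was not tested. Adjusted for the pan-endothelial markers, Csf1 was -0.43, Csf1r -0.80, Csf2ra -0.19, Csf2rb -1.20 and Csf2rb2 -0.13, with 0 members risen and 0 fallen. That fit called 0.923% of all genes, 0.64% higher and 0.283% lower. With the macrophage mean the changes were -0.63 for Csf1, -0.059 for Il34, -0.66 for Csf1r and 0.042 for Csf2ra. They were -1.25 for Csf2rb, -0.16 for Csf3r and -0.25 for Csf2rb2. In the macrophage fit 0 members rose and 1 fell, Csf1r (limma adjusted p = 0.0297). It called 1.9% of all genes, 1.27% higher and 0.631% lower. Without CDAA 1 and CDAA 3, Csf1r was -0.10, Csf2ra 0.47 and Csf2rb -0.33, with 0 members, 1 CSF1R relay and 0 inducers risen and 1 myeloid factor fallen. The differences were then -0.91 (Csf1 and Il34), -0.62 (Csf1r and macrophage markers) and -1.75 (Csf1 and stellate markers). Without these and Std 3, Csf1r was -0.0050 and Csf3r 1.14, with 2 members, 5 relays and 1 beta family gene risen and 1 myeloid factor fallen. With the neutrophil covariate Csf3r was 0.68, with 2 members, 5 relays, 1 beta family gene and 4 myeloid factors risen. With the marker median, the Csf2rb difference was -0.91. Leaving out 1 array gave 0.69 to 1.09 for Csf2ra, 0.62 to 1.39 for Csf3r, 0.13 to 0.53 for Csf1r, 0.02 to 0.65 for Csf2rb, 0.14 to 0.32 for Il34, -0.18 to -0.07 for Csf2, -0.13 to -0.07 for Csf3 and 0 to 2 members risen. Without Std 3, 6 relays, 1 beta family gene and 4 myeloid factors rose. Filters on dim genes removed Csf2, and the stricter of them also removed Csf3.

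Same-numbered arrays of the diets had deviation correlations of 0.02 to 0.25, not all above 0.1, so the numbers were not read as pairs, and 3 of 5 arrays of each diet correlated best with their own number. With the replicate number as a block no member's call moved. The changes were the same (Csf1 -0.99, Csf2ra 0.92) by design, since each number occurs once per diet. The SE was smaller for Csf2ra (0.17, against 0.27) and Csf2rb (0.24, against 0.46), and 0.16 in both fits for Csf1. The Csf2ra limma adjusted p was 0.00725 with the block. The counts were 5 relays, 1 JAK-STAT gene, 5 myeloid factors, 5 GM-CSF responsive genes and 2 inducers risen and 1 beta family gene fallen.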

Other observations

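Receptors of the beta common family are also carried by eosinophils, basophils and mast cells, and GM-CSF acts on dendritic cells. Of 8 eosinophil, basophil and mast cell markers, 6 lay at or below 3.31 log2 on every array. Siglecf, a lectin of eosinophils and of some macrophages, rose by 0.84 on the log2 scale (limma adjusted p = 0.00977), with means of 4.58 log2 in CDAA and 3.73 log2 in Std. Ccr3, a chemokine receptor of eosinophils, fell by 0.44 (limma adjusted p = 0.0470), with means of 2.41 log2 in CDAA and 2.85 log2 in Std, both in the dim range. Of 6 dendritic cell markers 0 rose and 1 fell. It was Zbtb46, a factor of classical dendritic cells that endothelial cells also express, with means of 6.82 log2 in CDAA and 7.68 log2 in Std (limma adjusted p = 0.00464). Limma called 0 of 7 T and NK cell markers and 0 of 4 measured B cell markers. Cholangiocyte markers were all called, with 8 of 8 risen and list means of 7.41 to 8.28 log2 in CDAA arrays and 4.40 to 5.48 log2 in Std arrays. Of 9 hepatocyte markers 4 rose and 1 fell, with list means of 7.25 to 8.26 log2 in CDAA arrays and 6.88 to 7.37 log2 in Std arrays.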
